A study of Homo sapiens with 4 samples.

Results

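The genes described here are 42 p53 targets and components of the apoptosis machinery, chosen by function and followed across 4 established cell lines from human germ cell tumours. Every gene was read from the probe set that the array annotation assigns to it alone, taking the one with the highest mean log2 value over the arrays. Of the 42 genes, 39 had such a probe set, of 19775 genes on the array, while BBC3, BIRC3 and FDXR had none assigned to them alone and were not analysed here. A gene was compared when its highest intensity reached 76.4 units, the median of all values. That left 38 of the 42 and 14926 genes in all, and BCL2A1, a BCL2-type inhibitor with 22.8 to 52.7 units in the 4 lines, did not reach it. Values below 76.4 units were set to that floor before any fold was taken, because low intensities on such arrays have no reliable order, and a fold against a value at the floor is written "at least".

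Total RNA of each line was measured on 1 single-colour oligonucleotide array, so each group is a single sample. The seminoma is represented by TCam-2, the teratoma by NT2D1, the embryonal carcinoma ("embryocarcinoma" in the labels) by GCT27 and the yolk sac tumour by GCT44. The labels place NT2D1 in a lung metastasis and the other lines in testicular tumours, and name no treatment, so all values are basal levels in culture with fetal bovine serum and antibiotics. A single line stands for each subtype, NT2D1 serves elsewhere as a model of pluripotent embryonal carcinoma cells, and TCam-2 was grown in RPMI-1640 while the others were grown in DMEM, so line, subtype and, for TCam-2, medium cannot be told apart. No line has a replicate, so the differences below carry no replicate error. A lower value may come from fewer cells expressing a gene or from less RNA per cell, which cannot be told apart here.

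The tumour suppressor p53 is a transcription factor that is held low by MDM2 and MDM4 and, when released, activates genes for cell cycle arrest, repair and cell death. Death is carried out along an extrinsic route, in which the receptors FAS, TNFRSF10A and TNFRSF10B recruit FADD and caspase-8, and an intrinsic route, in which BH3-only proteins release BAX and BAK1 from BCL2-type inhibitors so that cytochrome c can leave the mitochondria and activate caspase-9. Germ cell tumours are known for seldom carrying p53 mutations and for their sensitivity to cisplatin.

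The arrays had median intensities of 73.6 to 79.3. The seminoma and yolk sac labels matched their markers. All 3 seminoma markers (SOX17, PRAME and TFAP2C) lay above the floor in TCam-2 against 1 of 3 in each other line. All 3 yolk sac markers (APOA2, FOXA2 and AFP) lay above it in GCT44, with a summed intensity of 37692. In TCam-2 2 of the 3 did, and in NT2D1 and GCT27 1 of the 3, with sums of 150 to 415. The pluripotent markers SOX2, DNMT3B and NANOG were all above the floor in TCam-2, NT2D1 and GCT27, and 1 of the 3, DNMT3B, in GCT44. Their presence above the floor therefore does not set GCT27 apart, and no teratoma marker was read for NT2D1. By level these lines were less alike. SOX2 reached only 391 units in the seminoma line, while GCT27 had 18309 and NT2D1 had 20575. DNMT3B was also lower there, at 2841 units against 23760 (GCT27) and 11360 (NT2D1). NANOG was not, at 22390 units against 22428 (GCT27) and 13322 (NT2D1). Summed intensities of the 3 ran from 2385 (GCT44) to 64498 (GCT27), with 25622 for TCam-2. Of 6 fibroblast markers 3 to 5 were above the floor, with summed intensities of 7412 to 14418. Of the blood cell markers measured, none were above it in TCam-2 and NT2D1, 1 in GCT27 and 2 in GCT44, with summed intensities of 105 to 2913, and CD3D made up 2803 units of the sum in GCT44, while PTPRC, which marks white blood cells, was below it in every line. The ACTB 3'/5' signal ratio, a sign of RNA integrity, was 4.21 in GCT44 against 2.49 to 2.97 elsewhere, while the GAPDH ratio of 1.04 lay within the 0.898 to 1.09 of the other arrays. The part of these markers and ratios in the results below was not tested.

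Few of the genes stood apart in a single line. A gene was called in a line when its log2 value exceeded, or fell short of, that of each other line by 2 or more (4-fold), a criterion of size without a test. PHLDA3 was called higher in TCam-2 (1 of 38, against 1.49% of all genes compared), and TP53I3 was called lower there (1 of 38, against 0.744%). TNFRSF10A and TNFRSF10D were called lower in GCT44 (2 of 38, against 1.69%). None of the 38 was called in NT2D1 (0.523% of all genes higher and 0.241% lower) or in GCT27 (0.603% and 0.322%), and none was called higher in GCT44 (1.7%). The span between the highest and the lowest line was 4-fold or more for 13 of the 38 genes, against 20.5% of all genes compared, and 2-fold or more for 27, against 54.4%.

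**Figure D1:**
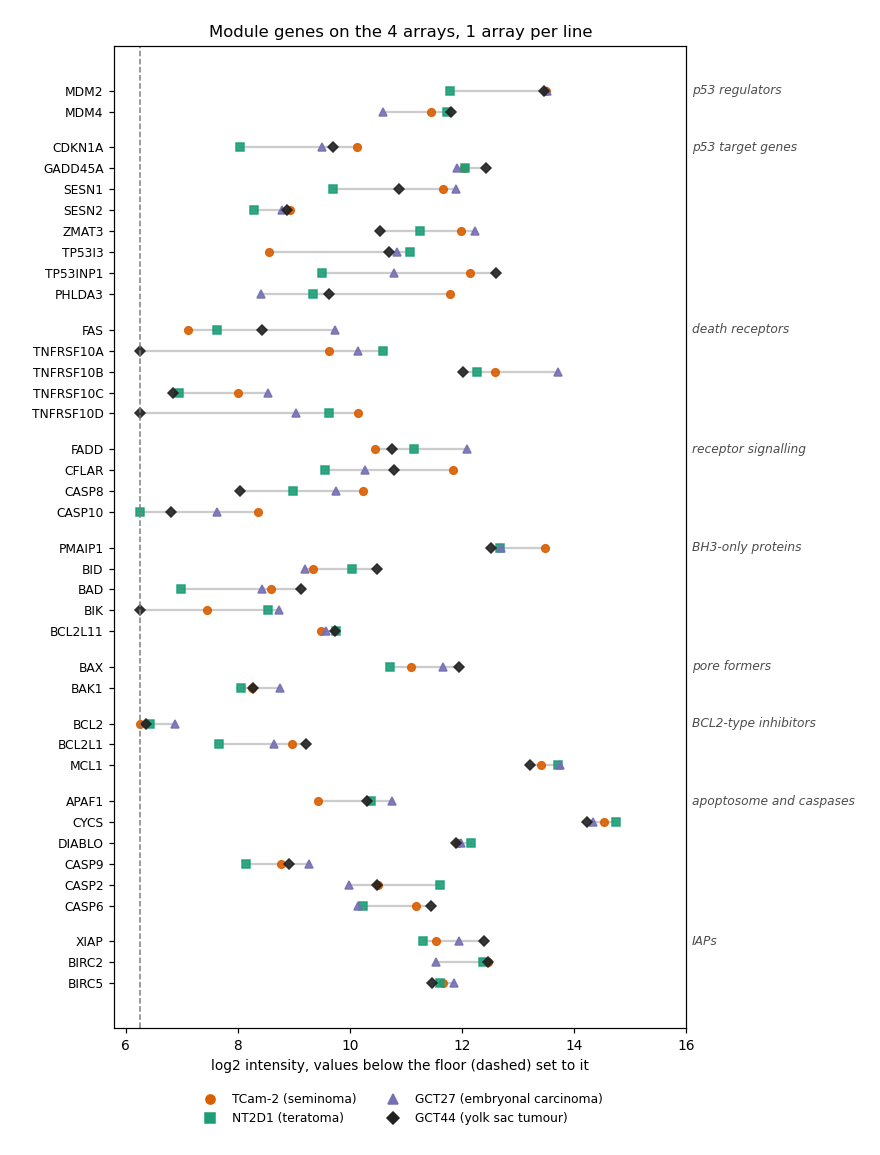
Log2 intensity of the 38 compared genes on the array of each line, ordered by role, with values below the floor (dashed line) set to it; there is 1 array per line and no error bar. TNFRSF10A and TNFRSF10D sit at the floor in GCT44 alone, NT2D1 is the lowest point for MDM2, CDKN1A, SESN1 and TP53INP1, and levels of different genes are not comparable because each has its own probes.

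Among the p53 regulators, MDM2, the ubiquitin ligase that marks p53 for degradation and is itself a p53 target, was low in NT2D1. Its intensity was 11605 in TCam-2 and 3509 in NT2D1, with 11766 in GCT27 and 11332 in GCT44. In the probe set used, TCam-2, GCT27 and GCT44 lay within 1.04-fold of each other. NT2D1 was 3.23-fold below the nearest of them, short of the size rule. The 3 lines were less alike in the next brightest probe set, with 3503 units in TCam-2, 6104 in GCT27 and 4566 in GCT44, against 1667 in NT2D1. Of the 10 probe sets for MDM2, 8 had a value above the floor, and NT2D1 was alone the lowest line in 7, while it tied with GCT44 below the floor in the other. MDM4, the related protein that blocks p53 without degrading it, had 2785 units in TCam-2 and 3385 in NT2D1, with 1532 in GCT27 and 3559 in GCT44. GCT27 was the lowest line for MDM4 in 5 of 6 probe sets, and the span was 2.32-fold. The lines with the lowest MDM2 and the lowest MDM4 were therefore different ones.

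The RefSeq promoter windows, from 250 bases before to 50 after an annotated start, were available for 31 of the 42 genes, as 59 windows in build GRCh38.p14. They were searched on both strands for the p53 consensus, which repeats a unit of 10 bases. A full site of 20 bases with no spacer and at most 2 mismatches was found in 3 of the 59 windows, belonging to MDM2 (overlapping windows of neighbouring starts) and FAS, each at a downstream start of the gene, against 0.65% of all windows. A perfect single unit, which may lie within a full site, was found in 6 of the 59, belonging to BAK1, CASP8, CASP9, FAS, FDXR and SESN1, against 6.64% of all windows. A match describes letters of the reference and does not show binding. The 250 bases before the start are shown for 3 genes, because MDM2 and SESN1 were both lowest in NT2D1 while FAS was not, with the matched full site (MDM2 and FAS) or single unit (SESN1) in capitals. The windows are chr12:68808767-68809016 on the plus strand for MDM2, chr10:88991181-88991430 on the plus strand for FAS and chr6:109008989-109009238 on the minus strand for SESN1, each written 5′ to 3′ on the strand of the gene.
MDM2: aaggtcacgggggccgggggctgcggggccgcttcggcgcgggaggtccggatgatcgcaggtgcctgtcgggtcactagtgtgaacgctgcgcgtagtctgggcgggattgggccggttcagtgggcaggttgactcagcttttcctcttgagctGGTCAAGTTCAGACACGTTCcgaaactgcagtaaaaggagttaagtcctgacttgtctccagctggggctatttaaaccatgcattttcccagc
FAS: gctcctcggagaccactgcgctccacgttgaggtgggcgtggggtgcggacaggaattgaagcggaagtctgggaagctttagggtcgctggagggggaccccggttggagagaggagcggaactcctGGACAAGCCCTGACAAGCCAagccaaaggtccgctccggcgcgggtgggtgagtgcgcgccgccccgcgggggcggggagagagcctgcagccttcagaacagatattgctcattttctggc
SESN1: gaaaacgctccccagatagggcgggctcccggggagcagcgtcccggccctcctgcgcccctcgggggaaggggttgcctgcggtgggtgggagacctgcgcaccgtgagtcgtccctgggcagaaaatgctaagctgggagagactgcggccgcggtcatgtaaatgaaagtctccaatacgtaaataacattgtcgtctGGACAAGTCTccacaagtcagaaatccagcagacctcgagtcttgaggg
The match in MDM2 spans 94 to 75 bases before the annotated start, at the downstream promoter through which p53 is known to drive this gene. That in FAS spans 122 to 103 bases before the start, and the single unit of SESN1 spans 49 to 40 bases before it.

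The p53 target genes did not move as a block, and TP53I3 and PHLDA3 differed in opposite directions in TCam-2. PHLDA3, a repressor of AKT signalling, had 3547 units in TCam-2 and 646 in NT2D1, with 342 in GCT27 and 793 in GCT44. It was 4.47-fold higher in TCam-2 than in the next line, GCT44. Its second probe set was also highest in TCam-2, with 1755 units against 318 to 595, but with the median over both probe sets the log2 margin was 1.86, short of the rule. TP53I3, a quinone oxidoreductase that generates reactive oxygen species, had 374 units in TCam-2 and 2143 in NT2D1, with 1831 in GCT27 and 1652 in GCT44. It was 4.41-fold lower in TCam-2 than in the next line, and the non-seminoma lines lay within 1.30-fold of each other. It has a single probe set, and its log2 margin was 1.84, short of the rule, when the arrays were scaled to the spiked-in hybridization controls.

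Several other targets were low in NT2D1. CDKN1A encodes p21, the inhibitor of cyclin-dependent kinases that arrests the cycle. It had 1111 units in TCam-2 and 262 in NT2D1, with 724 in GCT27 and 826 in GCT44, so NT2D1 was 2.77-fold below the next line. SESN1, a stress-induced inhibitor of mTORC1, had 3220, 832, 3815 and 1885 units in the same order of lines, with NT2D1 2.27-fold below the next. TP53INP1, a cofactor in stress responses and autophagy, had 4524 units in TCam-2 and 725 in NT2D1, with 1756 in GCT27 and 6213 in GCT44. It had the widest span of the genes lowest in NT2D1, 8.57-fold between GCT44 and NT2D1, although NT2D1 was 2.42-fold below GCT27, its nearest line. SESN2, a relative of SESN1, was lowest in NT2D1 as well, at 313 units against 445 to 491. None of these met the size rule against all other lines.

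The remaining targets had other orders. ZMAT3, an RNA-binding zinc finger protein, was lowest in GCT44 with 1491 units against 2437 to 4795 elsewhere, and GCT44 was the lowest line in 4 of its 5 probe sets. GADD45A, a stress sensor of arrest and repair, varied by 1.44-fold, from 3835 units in GCT27 to 5537 in GCT44. Over the 8 targets compared, the median difference between a line and the mean of the others was 0.74 on the log2 scale in TCam-2 and -0.60 in NT2D1, with 0.16 in GCT27 and 0.32 in GCT44, against medians of -0.06, -0.03, -0.02 and -0.04 over all genes compared. In NT2D1, 7 of the 8 lay below the mean of the other lines and TP53I3 above it. The NT2D1 median stayed below 0 under each processing alternative run, between -0.998 and -0.34. The GCT44 median was -0.07 when scaled to spiked-in controls, which moved the median of all genes to -0.30 in that line, and -0.06 when NT2D1 was left out. The GCT27 median was -0.45 without probe sets able to match several transcripts, and -0.22 when NT2D1 was left out.

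The receptor group held the death receptors FAS, TNFRSF10A and TNFRSF10B and the decoys TNFRSF10C and TNFRSF10D. By group median these receptors were highest in GCT27 and lowest in GCT44, but the lines furthest apart differed from receptor to receptor. TNFRSF10A, a death receptor for the ligand TRAIL, had 793 units in TCam-2 and 1547 in NT2D1, with 1129 in GCT27 and 65.0 in GCT44, where it lay below the floor. It was at least 10.4-fold lower in GCT44 than in TCam-2, the next line, and at least 20.2-fold lower than in NT2D1. Its other probe sets gave 113 and 8.08 units in GCT44 against 347 to 434 and 196 to 263 in the other lines, so GCT44 was lowest in all 3. TNFRSF10D, a decoy receptor that binds TRAIL with a truncated death domain, followed the same pattern, with intensities of 1125 (TCam-2), 789.8 (NT2D1), 523 (GCT27) and, below the floor, 75.2 (GCT44). It was at least 6.84-fold lower in GCT44 than in GCT27. Its second probe set exceeded the floor in TCam-2 alone, at 91.7 units, and with the median over both the log2 margin was 0.14.

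The other TRAIL receptors were not called. TNFRSF10B, the second death receptor for TRAIL and a p53 target, kept 4147 units in GCT44, against 6177 in TCam-2, 4924 in NT2D1 and 13424 in GCT27. GCT27 was 2.17-fold above TCam-2, and GCT44 was 1.19-fold below NT2D1, so these lines were close at the low end. Of the 4 probe sets for TNFRSF10B, GCT44 was alone the lowest line in 1. TNFRSF10C, a decoy without an intracellular domain, had 255 units in TCam-2 and 123 in NT2D1, with 373 in GCT27 and 115 in GCT44. Its probe sets disagreed in size, since the one with the highest mean intensity gave 483, 95.5, 843 and 7.07 units in that order of lines, but the order at the top (GCT27, then TCam-2) was the same. These receptor genes are similar in sequence and the probe set used for TNFRSF10C can match several transcripts, so its signal may not come from that gene alone.

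FAS, the receptor of FAS ligand and a p53 target, had 139 units in TCam-2 and 198 in NT2D1, with 855 in GCT27 and 347 in GCT44. It was 6.16-fold higher in GCT27 than in TCam-2 and 2.47-fold higher than in GCT44. All 4 of its probe sets with a value above the floor were highest in GCT27, and TCam-2 was alone the lowest line in 3 of them. Across the 5 receptors, the median distance to the average of the remaining lines was 1.31 in GCT27, with all 5 above 0, and -0.98 in GCT44, with 4 below 0 and FAS above. It was 0.55 in TCam-2 and -0.51 in NT2D1. In GCT44 the death receptors had differences of 0.27 (FAS), -3.87 (TNFRSF10A) and -0.84 (TNFRSF10B). The decoys had -0.98 (TNFRSF10C), which is the group median, and -3.34 (TNFRSF10D) in that line. The GCT44 median ranged from -2.16 to -0.62 over the alternatives, and the GCT27 median from 1.07 to 1.65. The TCam-2 median was -0.40 when GCT44 was left out, and the NT2D1 median was 0.32 without probe sets able to match several transcripts.

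**Figure D2:**
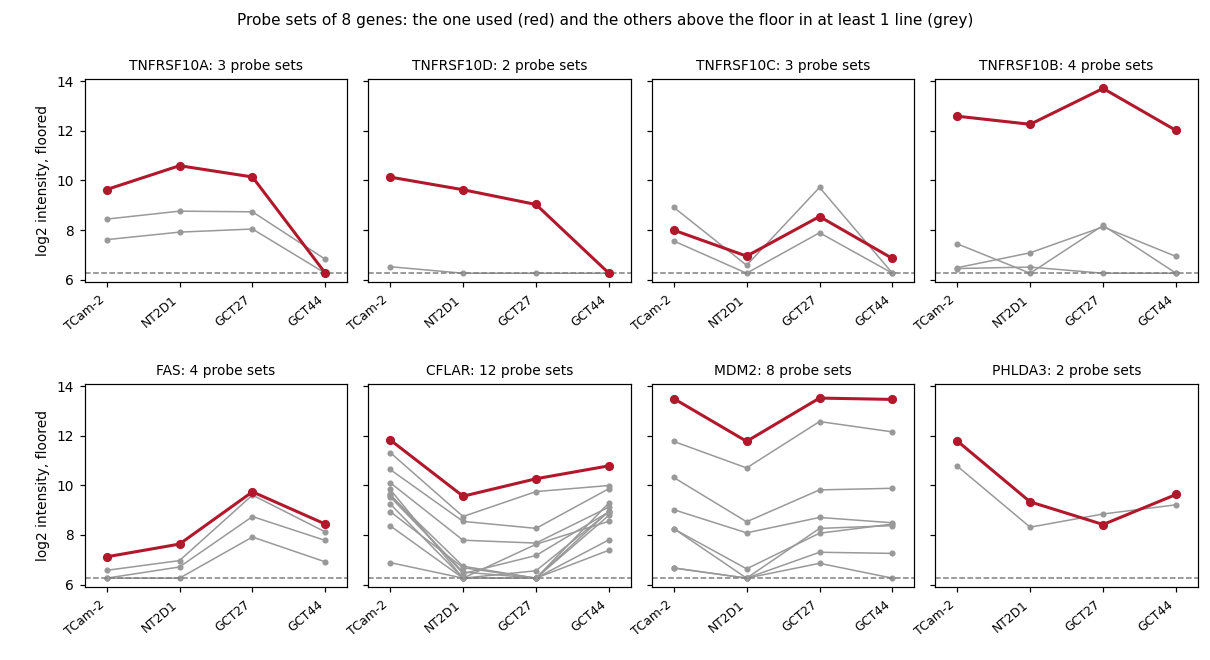
Log2 intensity (floored, dashed line at the floor) of each probe set that exceeded the floor in at least 1 line, for 8 genes across the 4 lines; the probe set used is red and the others are grey. All 3 probe sets of TNFRSF10A drop in GCT44, 7 of the 8 of MDM2 are lowest in NT2D1 alone, the 4 of FAS peak in GCT27, and only 1 of 2 for TNFRSF10D carries signal in more than 1 line.

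Downstream of the receptors, the adaptor and the inhibitor differed in different lines. FADD, the adaptor that links receptors to caspase-8, had 1394 units in TCam-2 and 2268 in NT2D1, with 4342 in GCT27 and 1724 in GCT44, so it was highest in GCT27, the line with the highest FAS and TNFRSF10B. CFLAR encodes c-FLIP, the catalytically dead relative of caspase-8 that blocks its activation at the receptor. It had 3654 units in TCam-2 and 756 in NT2D1, with 1232 in GCT27 and 1769 in GCT44. TCam-2 was 2.07-fold above GCT44 and 4.83-fold above NT2D1. TCam-2 was the highest line in 10 of 12 CFLAR probe sets with a value above the floor, and NT2D1 alone the lowest in 5 of 12. CASP8, the initiator caspase of the receptors, had 1203 units in TCam-2 and 504 in NT2D1, with 863 in GCT27 and 264 in GCT44. GCT44 was 1.91-fold below NT2D1 and 4.55-fold below TCam-2. A second, dim CASP8 probe set was highest in GCT27 (109 units, against 95.5 in TCam-2) and below the floor in NT2D1 and GCT44. CASP10, a close relative of caspase-8, had 330, 33.5, 198 and 113 units in the same order, with NT2D1 below the floor. TCam-2 was thus highest for the inhibitor CFLAR and for both initiator caspases, and GCT44 was lowest for CASP8 and for 4 of the 5 receptors. For TNFRSF10B and TNFRSF10C, GCT44 was close to NT2D1, the next line, at 1.19-fold and 1.07-fold below it. The group of 4 had a median difference of 1.39 in TCam-2 and -0.86 in NT2D1, with 0.58 in GCT27 and -0.54 in GCT44.

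The BH3-only genes, whose products sense stress and trigger the mitochondrial route, went both ways in each line, with medians of -0.20 in TCam-2 and 0.15 in NT2D1, with -0.07 in GCT27 and 0.12 in GCT44 over the 5 compared. In NT2D1 their differences ran from -1.73 to 1.05 and in GCT44 from -1.99 to 1.12, and 2 of the 5 spanned 4-fold or more. BIK had 176 units (TCam-2), 371 (NT2D1), 427 (GCT27) and, below the floor, 11.6 (GCT44), at least 5.59-fold lower there than in GCT27 but at least 2.30-fold lower than in TCam-2. BIK has a single probe set. BAD, which is inactivated by survival kinases, had 388 units in TCam-2 and 128 in NT2D1, with 347 in GCT27 and 560.0 in GCT44, so NT2D1 was 2.72-fold below the next line. PMAIP1, which encodes the p53 target NOXA, was at 11443 units in TCam-2 and 5873 to 6640 in the other lines. BID, the link between caspase-8 and mitochondria, had 646, 1049, 586 and 1432 units in the order TCam-2, NT2D1, GCT27 and GCT44, and GCT27 was the lowest line in all 3 of its probe sets. BCL2L11, which encodes BIM, varied by 1.20-fold, from 715 to 860 units, in the probe set used. Some of its other probe sets spanned more. One had 370 units in GCT27 and 769 in NT2D1, and another 95.3 in TCam-2 and 245 in NT2D1. NT2D1 was the highest line in 6 of the 7 probe sets for BCL2L11.

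The pore formers and their inhibitors also differed by less than 4-fold. BAX, a pore former of the outer mitochondrial membrane and a p53 target, had 2170 units in TCam-2 and 1689 in NT2D1, with 3232 in GCT27 and 3938 in GCT44, and both of its probe sets were lowest in NT2D1 and highest in GCT44. BAK1, its partner, lay between 267 units in NT2D1 and 432 in GCT27. In the probe set used, BCL2, the founding inhibitor of the family, was near the floor in all lines, at 43.2, 86.0, 117 and 81.9 units. Another probe set for BCL2 had 163 units in NT2D1 and 81.0 in TCam-2, and was below the floor in GCT27 and GCT44. The differences of BCL2 are therefore not measured well here. BCL2L1, which encodes BCL-XL, had 501 units in TCam-2 and 204 in NT2D1, with 402 in GCT27 and 592 in GCT44, with NT2D1 lowest. MCL1, a short-lived inhibitor that NOXA antagonizes, varied by 1.45-fold, from 9502 units in GCT44 to 13820 in GCT27. NT2D1 was therefore the lowest line for BAD, BAX, BAK1 and BCL2L1, which include both promoters and an inhibitor of death.

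The genes that act once the mitochondria are breached, and the inhibitor of apoptosis proteins (IAPs) that hold them back, also spanned less than 4-fold. CYCS, which encodes cytochrome c, varied by 1.43-fold, from 19102 to 27358 units. DIABLO, the mitochondrial antagonist of the IAPs, varied by 1.20-fold, from 3814 to 4577 units. APAF1, the scaffold of the apoptosome, had 690 units in TCam-2 and 1265 to 1719 in the other lines. CASP9, its initiator caspase, lay between 283 units in NT2D1 and 615 in GCT27. CASP2, an initiator caspase of stress responses, was highest in NT2D1 with 3099 units against 1008 to 1447, and CASP6, an effector caspase, was higher in TCam-2 (2305) and GCT44 (2788) than in NT2D1 (1202) and GCT27 (1129). Of the IAPs, XIAP, which binds caspases directly, had 2515 units in NT2D1, 2959 in TCam-2, 3923 in GCT27 and 5374 in GCT44, and NT2D1 was its lowest line in all 7 probe sets. BIRC2, a ubiquitin ligase at the TNF receptor, had 2969 units in GCT27 and 5333 to 5647 in the others. BIRC5, which encodes survivin, an IAP also needed in mitosis, varied by 1.31-fold around 2822 to 3705 units.

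**Figure D3:**
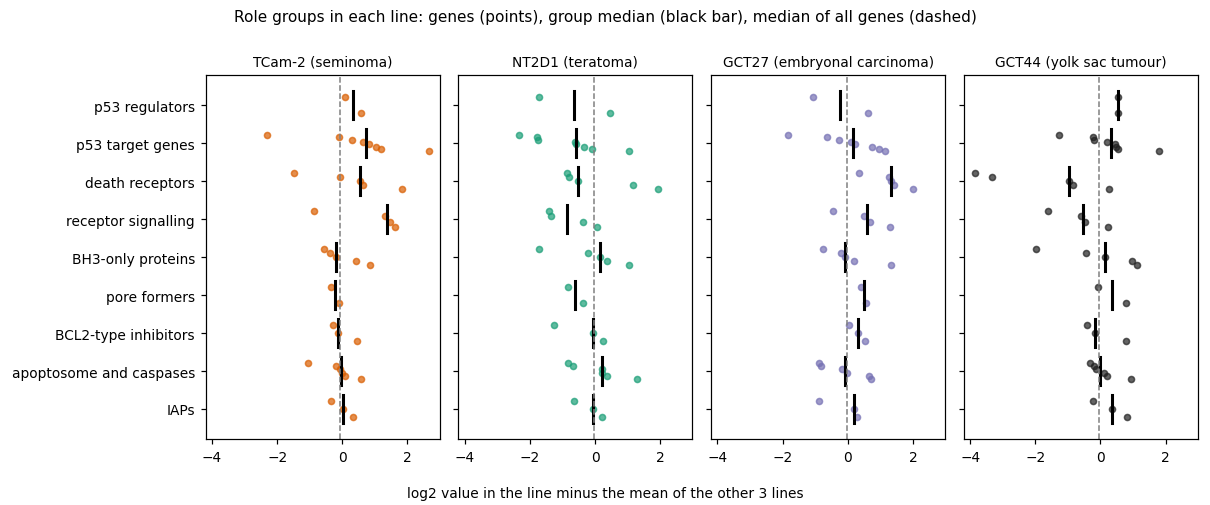
Difference between each line and the mean of the other 3, on the log2 scale, for the 38 genes by role; points are genes, black bars are group medians and the dashed line is the median of all genes compared. The receptors have a median of 1.31 in GCT27 and -0.98 in GCT44, receptor signalling genes 1.39 in TCam-2, and pore formers -0.60 in NT2D1 and 0.49 in GCT27.

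Set side by side, each line had its own highest and lowest genes, some of which are given here by rank whatever the margin. In TCam-2 the receptor FAS, the adaptor FADD, APAF1 and the BH3-only gene BCL2L11 were lowest, BCL2L11 by 1.07-fold. The decoy TNFRSF10D, CFLAR, CASP8, CASP10 and the BH3-only gene PMAIP1 were highest there, PMAIP1 by 1.72-fold. In NT2D1 the receptor TNFRSF10A and the caspase CASP2 were highest, and MDM2, CDKN1A, CFLAR, BAX and BCL2L1 were lowest. In GCT27 the receptors FAS and TNFRSF10B, the decoy TNFRSF10C, the adaptor FADD and the BH3-only gene BIK were highest. The inhibitors MCL1, BCL2 and BIRC5 also ranked highest in GCT27, but by small margins or near the floor. GCT27 exceeded NT2D1 by 1.04-fold for MCL1 and 1.15-fold for BIK, and TCam-2 by 1.14-fold for BIRC5. BCL2 was near the floor in all lines in the probe set used, and another probe set was highest in NT2D1. In GCT44 TNFRSF10A, TNFRSF10D, CASP8, BIK, PMAIP1 and MCL1 were lowest, while BAX, BAD, BID and the inhibitors BCL2L1 and XIAP were highest. GCT44 was 1.11-fold below NT2D1 for PMAIP1, 1.15-fold below TCam-2 for MCL1 and 1.18-fold above TCam-2 for BCL2L1. For BID the rank held in 1 of 3 probe sets, and the others were highest in NT2D1. NT2D1 was the lowest line for 13 of the 38 genes, against 17.8% of all genes compared, and GCT44 for 12, against 21.9%. TCam-2 was lowest for 6 (20.8% of all genes) and GCT27 for 7 (17.7%). GCT27 was the highest line for 14 of the 38, against 24.8%, and GCT44 for 10 (26.9%), TCam-2 for 8 (24.7%) and NT2D1 for 6 (23.6%). These counts of extremes were chosen after the values were seen. Over all 38 genes the median difference was 0.09 in TCam-2 and -0.35 in NT2D1, with 0.30 in GCT27 and 0.02 in GCT44.

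The count for NT2D1 was 13 under each scaling of the arrays. With the median over probe sets it was 11 of 35, against 16.6% of all genes, and without probe sets able to match several transcripts 7 of 26, against 15.9%. The count for GCT44 was 7 of 35, against 19.4% of all genes, and 7 of 26, against 20.5%, so with the median over probe sets its share was near that of all genes. Scaling to the spiked-in controls made GCT27 highest for 21 of the 38, and for 41.3% of all genes, whose median difference was 0.29 in that line under this scaling.

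**Figure D4:**
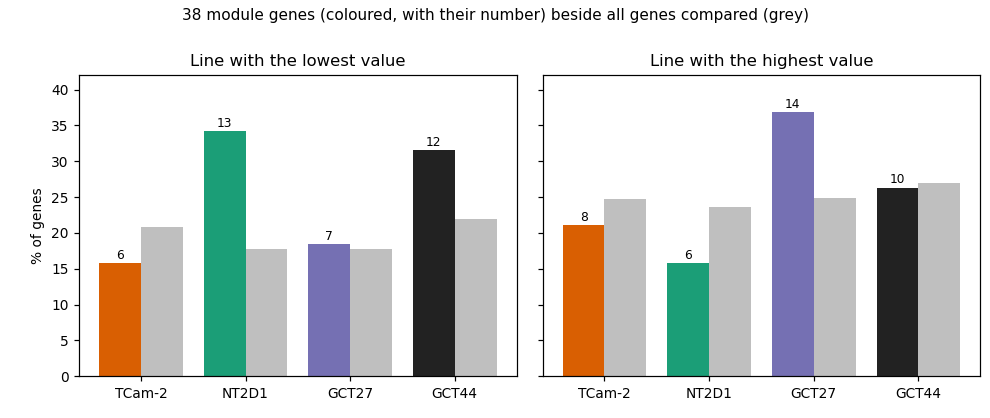
Share of the 38 genes (coloured bars, with their number above) and of all genes compared (grey bars) for which each line has the lowest value (left) or the highest value (right), in percent. NT2D1 is lowest for 13 and GCT44 for 12 of the 38, and GCT27 is highest for 14.

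The lines were then set against each other in pairs, again at 4-fold. TCam-2 exceeded NT2D1 for 5 of the 38 genes (CDKN1A, TP53INP1, PHLDA3, CFLAR and CASP10), against 4.21% of all genes, and NT2D1 exceeded TCam-2 for TP53I3 (1 of 38, against 4.05%). TCam-2 exceeded GCT44 for 4 (PHLDA3, TNFRSF10A, TNFRSF10D and CASP8), against 5.7%, and the reverse held for TP53I3 (4.38%). TCam-2 exceeded GCT27 for PHLDA3 (3.58%), and GCT27 exceeded TCam-2 for TP53I3 and FAS (2 of 38, against 3.79%). NT2D1 and GCT27 were apart for 2 genes, SESN1 and FAS, both higher in GCT27 (2.58%), with none the other way (2.09%). NT2D1 exceeded GCT44 for TNFRSF10A, TNFRSF10D and BIK (3 of 38, against 4.76%), and GCT44 exceeded NT2D1 for TP53INP1 and BAD (2 of 38, against 3.77%). GCT27 exceeded GCT44 for the same 3 genes, TNFRSF10A, TNFRSF10D and BIK (5.3%), with none the other way (4.15%).

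**Figure D5:**
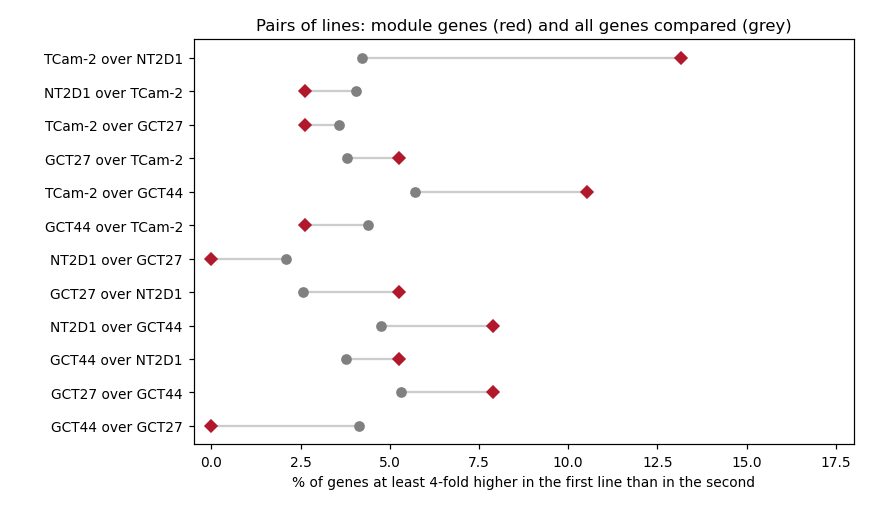
Share of genes, in percent, at least 4-fold higher in the first line than in the second, for the 38 genes (red) and all genes compared (grey), in the 12 ordered pairs of lines. TCam-2 over NT2D1 has 5 of the 38 genes, against 4.21% of all genes.

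The comparison of TCam-2 with the lines of other subtypes was tested with limma on log2 values without the floor. The spread there comes from 3 lines of different subtypes, and TCam-2 is assumed to vary as they do. Of the 38 genes none passed a Benjamini-Hochberg adjusted p of 0.05 over 14926 genes, nor did any gene of the array, and 2 of the 38 had an unadjusted p under 0.05, against 6.05% of all genes. TP53I3 came first, with a log2 difference of -2.32 (SE 0.49) and a limma adjusted p of 0.584, lower in TCam-2 than in each of the 3 other lines. PHLDA3 followed, with a log2 difference of 2.66 (SE 0.68) and a limma adjusted p of 0.682, higher than in each of the 3. Over the alternatives, the smallest adjusted p of any of these genes lay between 0.180 and 1.00. With 2 residual degrees of freedom the contrast does not show that the other genes are alike in the lines.

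Other genes of the pathway were taken from a separate list of 62, of which 50 were compared, 3 lay below the filter (the ligands FASLG, TNFSF10 and TNF) and 9 had no probe set assigned to them alone and were not analysed here. The size rule called 3 of the 50. GDF15 was called lower in NT2D1 (1 of 50, against 0.241% of all genes compared). GPX1 was called lower in TCam-2 (1 of 50, against 0.744%) and HIPK2 higher in GCT44 (1 of 50, against 1.7%). GDF15, a secreted stress cytokine and p53 target, had 5254 units in TCam-2 and 258 in NT2D1, with 4528 in GCT27 and 2614 in GCT44, and was 10.1-fold lower in NT2D1 than in the next line. GPX1, a glutathione peroxidase, had 126 units in TCam-2 against 4056 to 16612 and was 32.2-fold lower there than in the next line. HIPK2, a kinase that phosphorylates p53, was 4.21-fold higher in GCT44 at 8467 units. NT2D1 was the lowest line for 14 of the 50 (17.8% of all genes), TCam-2 for 15 (20.8%), GCT44 for 11 (21.9%) and GCT27 for 6 (17.7%). The 50 had a median difference of -0.26 in NT2D1, -0.10 in TCam-2, -0.02 in GCT44 and 0.16 in GCT27. The p53 targets TIGAR, a regulator of glycolysis, and RRM2B, a ribonucleotide reductase subunit, had 4693 and 2186 units in NT2D1 against 7580 to 13521 and 3515 to 8329 in the other lines. PPM1D, a phosphatase that switches p53 off, had 1685 units in NT2D1 against 3107 to 4582. Other genes of the list did not follow this order. DDB2, a repair protein and p53 target, had 867 units in NT2D1, 840 in TCam-2, 1317 in GCT44 and 3681 in GCT27. NT2D1 was the highest line for 8 of the 50 (23.6% of all genes). Among these were THBS1, with 1382 units against 161 to 799, and EI24, with 6867 units against 3944 to 6227.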

How the data were processed

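Total RNA of 4 cell lines, 1 array each, was hybridized by the authors to a single-colour array with 54675 probe sets. What the authors deposited is a linear intensity per probe set. The mean without the outer 2% at either side was 500.1 for all arrays, so the values had been scaled before deposit. The submitters' processing notes name RMA without a version, whose usual output is log2, so the method behind the deposited intensities is not settled. Log2 was taken here.

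41097 probe sets had 1 gene symbol in the array annotation, 1801 had several and 11777 were not listed. Each gene took the probe set with the highest mean log2 value. The floor was 76.4 units, and the size rule was 2 on the log2 scale beyond the nearest other line. limma (3.58.1, R 4.3.3) used an intensity trend and Benjamini-Hochberg adjustment. Other steps used Python 3.11.15. The size rule and limma were also run on simulated data, with shifts larger than the rule and noise smaller than the spread between the non-seminoma lines. Because of these settings, that run cannot show how either performs on these arrays.

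The members, role groups, lists and thresholds were chosen with earlier results of these data known. Genes of the module spanning 4-fold or more, called genes and central genes of each role were named with all values. TIGAR, RRM2B, PPM1D, DDB2, THBS1 and EI24 were named after their values were seen. The number of arrays limits the precision. Files name no genome build, so coordinates are given for the RefSeq promoter windows alone.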

Additional observations from a re-analysis of the deposited data

How the results depend on the processing

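Alternatives changed 1 choice at a time. With the median over probe sets, 0 genes were higher in TCam-2 (against 1.28% of all genes). Under that setting 1 was lower in GCT44 (TNFRSF10A, against 1.01%). The number lower in TCam-2 was 0 without probe sets able to match several transcripts (0.681% of all genes), since TP53I3 had no probe set left. It was also 0 when arrays were scaled to the spiked-in controls (0.719%). With a threshold of 1 on the log2 scale, 2 genes were higher in TCam-2 (PHLDA3 and CFLAR; 4.62% of all genes), 1 in NT2D1 (CASP2; 2.81%) and 2 in GCT27 (FAS and TNFRSF10B; 3.16%), and 5 were lower in NT2D1 (MDM2, CDKN1A, SESN1, TP53INP1 and BAD; 1.98%). Against the mean of the other lines, 1 was lower in NT2D1 (TP53INP1; 1.39%) and 1 higher in GCT27 (FAS; 2.52%). Leaving out each other line in turn gave 0 to 1 lower in NT2D1 (0.576% to 0.817% of all genes) and 0 to 1 higher in GCT27 (0.985% to 1.78%). It gave 1 higher in TCam-2 each time (2.02% to 2.42%) and 1 lower there (1.16% to 1.8%). In GCT44, 2 to 3 were lower (2.18% to 2.8%). BIK was the third, without TCam-2, where the share of all genes was 2.8%. The TNFRSF10A margin kept its call under every alternative run, between 2.18 and 3.88. No gene of the module passed limma under any alternative, and no margin of the 4 called genes changed sign. The causes of these shifts were not tested. The probe set with the highest mean intensity was an alternative added after seeing the data, as were those on extremes and group medians. No paired analysis was possible because each group holds 1 sample. Signal near the floor limits BCL2, CASP10, BIK, TNFRSF10A and TNFRSF10D, whose lowest values give bounds.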

Other observations

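Some probe sets of these genes differed from the ones used. A second probe set for CYCS had 708 units in NT2D1 and 146 to 255 in the other lines, a wider span than that of the probe set used, although both were highest in NT2D1. For BID, both other probe sets were higher in NT2D1 (973 and 778 units) and GCT44 (619 and 626) than in TCam-2 and GCT27 (177 to 319), while the one used was highest in GCT44. One probe set for BIRC5 had 341 units in TCam-2 and 1124 in NT2D1, where the one used had 3236 and 3117. Of 27 genes with more than 1 probe set above the floor, 8 had the same single lowest line in all of them and 11 the same single highest line. What separates these probe sets, such as the transcripts they match, was not tested.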
